A study of Homo sapiens with 6 samples.

Results

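Glycolysis splits glucose into pyruvate, lactate dehydrogenase turns pyruvate into lactate, and monocarboxylate transporters carry lactate across the cell membrane. Gluconeogenesis runs several of the same steps towards glucose with its own enzymes at the irreversible ones, and glycogen is the polymer in which glucose is stored. In the kidney the proximal tubule is known as a site of gluconeogenesis that gains most of its energy from mitochondrial oxidation, whereas cultured tubule lines depend more on glycolysis. Here 34 genes of these routes were followed step by step, out of 58825 genes in the deposited table. They were chosen by name, with earlier results of these data known. The list holds 2 glucose transporters, 15 enzymes from hexokinase to pyruvate kinase, and 3 genes for the enzymes that set the level of the activator of phosphofructokinase. It also holds 4 genes for lactate dehydrogenase and lactate export, 3 genes of pyruvate entry into the mitochondrion, 4 gluconeogenic genes and 3 genes of glycogen synthesis.

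RNA was measured by poly(A) RNA sequencing in HK-2, an immortalized line of human proximal tubule epithelial cells. There were 3 Control libraries, labelled as untreated and with no time given, and 3 OX-LDL libraries, from cells given 25 μg/ml oxidized low-density lipoprotein for 48 h. The study's methods describe low-serum starvation before the treatment, and neither they nor the labels name a batch, a vehicle or which cultures the libraries came from, so p-values measure the spread between these libraries only. Total counts were between 62561347 and 76797607 per library, with about 4 counts per read pair, and 12 counts were taken as the detection limit. Of the 13 epithelial and tubule markers examined, EPCAM, KRT8, KRT18, KRT19, PAX8 and GGT1 were above 1 FPKM on average. LRP2, the megalin receptor of the proximal tubule, was at or below the detection limit, and ANPEP, AQP1, CUBN and SLC34A1 were at most 0.142 FPKM. CDH1, which encodes E-cadherin, had 0.0276 to 0.144 FPKM in Control and 0.0602 to 0.134 FPKM in OX-LDL. PAX2 had 0.302 to 0.661 FPKM in Control and 0.225 to 0.268 FPKM in OX-LDL. The summed level of the 13 markers was 195 to 216 FPKM in Control and 216 to 258 FPKM in OX-LDL. The markers did not move together: PAX8, a transcription factor of the renal lineage, had 32.6 to 58.0 FPKM in Control and 16.3 to 24.2 FPKM in OX-LDL, KRT8 had 30.9 to 43.8 and 59.7 to 68.6, and KRT19 had 4.92 to 5.81 and 15.4 to 24.9. GGT1 is listed under ENSG00000100031 and ENSG00000286070, and the sum holds both. The former had 3.13, 18.2 and 3.88 FPKM in Control and 15.8, 17.7 and 16.1 FPKM in OX-LDL. The latter had 18.2, 0.0518 and 22.6 FPKM in Control and at most 0.0658 FPKM in OX-LDL, and how reads were split between them is not given. None of 6 fibroblast and 3 endothelial markers and 1 of 4 blood and macrophage markers exceeded 1 FPKM. That marker was CD68 (4 markers summed: 2.82 to 7.57 FPKM in Control and 8.94 to 13.8 FPKM in OX-LDL), PTPRC and LYZ were at or below the detection limit, and the part of these markers in the results was not tested. Levels are given in FPKM, fragments per kilobase of a transcript scaled to the size of the library. In bulk RNA, a change in how many cells express a gene and a change of its RNA per cell cannot be told apart.

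Transcripts of the glycolytic route were higher in the OX-LDL libraries at most of its steps. Of the 34 genes, 32 reached the minimum mean of 0.1 FPKM, and 21 of them (65.6%) were higher at an adjusted p under 0.05 in edgeR's quasi-likelihood test, against 7.91% of all 19510 genes tested. Lower calls were made for 2 of the 32, the lactate transporter SLC16A1 and the mitochondrial phosphoenolpyruvate carboxykinase PCK2 (6.25%, against 7.42% of all genes tested). The remaining 9 did not pass the test. FBP1 and PCK1 did not reach the minimum. Because the genes were chosen with earlier results of these data known, these shares describe the list only. Of 35 other tested genes of the same routes, 11.4% were higher and 17.1% lower. The median log2 fold change over the 32 genes was 0.50, beside a median of -0.0043 over all genes tested, and 26 of the 32 had a positive sign, beside 49.7% of all genes tested.

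The rises were mostly small. Among the 21 higher genes the fold ranged from 1.34 (GBE1) to 4.14 (PFKFB4), and 5 exceeded 2-fold: PFKFB4, PDK1, LDHA, PGK1 and GYS1. In all 21 the 3 OX-LDL libraries lay above the 3 Control libraries in FPKM, but the calls come from the same libraries, so this is not separate support. Among the 32 tested genes, 22 (68.8%) had such groups, the 21 and SLC2A3. Over all genes tested, 16.8% had groups that did not overlap in this direction and 20.5% in the other. In that other direction stood 4 of the 32 (12.5%), namely SLC16A1, PCK2, PFKFB2 and PDHA1. With a fold above 2 or below 0.5 and an unadjusted p under 0.05, 6 of the 32 were higher, the 5 above and ALDOC (3.19% of all genes tested), and PCK2 was lower (3.16%), while ALDOC did not pass with an adjusted p. In either direction 23 of the 32 (71.9%) passed the adjusted threshold, against 15.3% of all genes tested. The summed level of the 34 genes was 2912 ± 101 FPKM over the Control libraries and 4112 ± 39.3 FPKM over the OX-LDL libraries (SD, 3 libraries each), or 1.22% and 1.72% of all FPKM. GAPDH alone took 0.304% of all counts in Control and 0.439% in OX-LDL. Leaving out 1 library changed the count of higher genes to between 11 (without OX-LDL replicate 3) and 19 (without OX-LDL replicate 2), and it was 12 without Control replicate 2. The genes called in every alternative numbered 13 of 23, namely PFKP, PFKFB4, GAPDH, PGK1, PGAM1, ENO1, PKM, LDHA, SLC16A3, PDK1 and GYS1 among the higher genes, and SLC16A1 and PCK2.

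**Figure D1:**
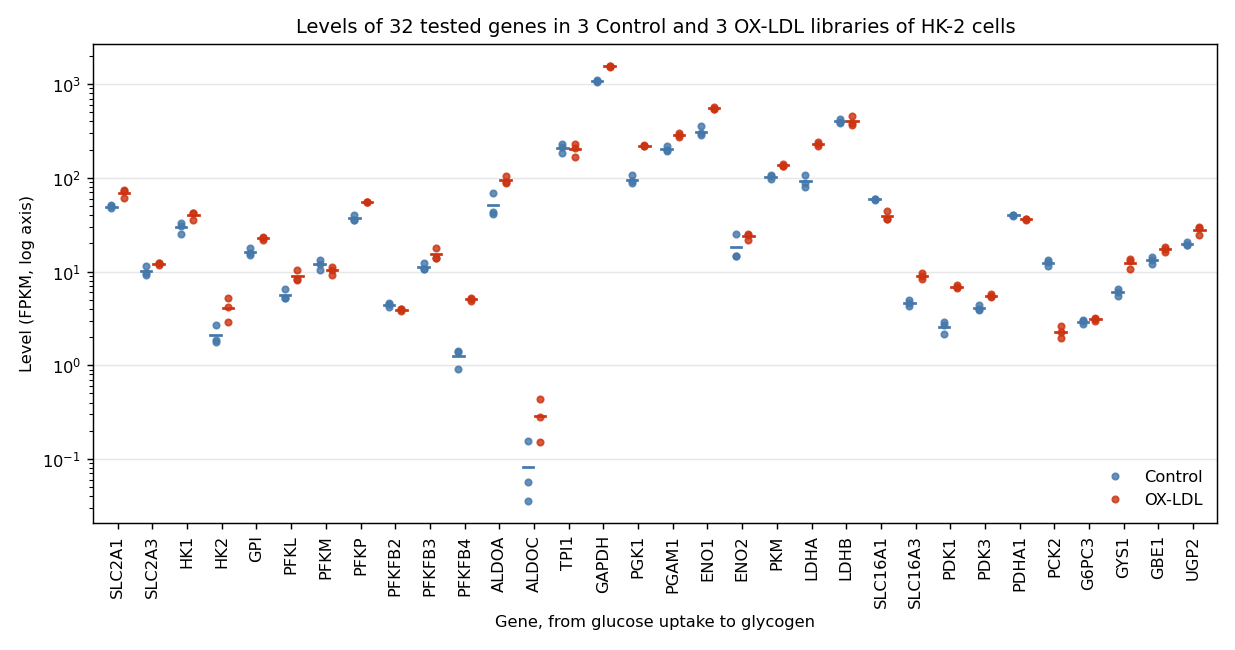
Level of each of the 32 tested genes in FPKM on a log axis, in the order of the route from glucose uptake to glycogen; points are libraries (3 Control, 3 OX-LDL) and bars are group means. GAPDH is the highest and ALDOC the lowest, the OX-LDL points of 21 genes called higher lie above the Control points, and those of SLC16A1 and PCK2 lie below.

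The 5′ flanks of 5 genes are printed: PFKFB4, PDK1, LDHA and PGK1, which had the largest rises among the genes called higher, and PCK2, which had the largest fall. Each is the 250 bases before a RefSeq start site on GRCh38.p14, written 5′ to 3′ on the gene's strand. Capitals mark ACGTG on either strand, a form of the core of the hypoxia response element. Other forms of that core were not searched and are not marked. The letters CACGTG, known as an E-box, hold ACGTG on both strands. The positions are chr2:172555123-172555372 (plus strand) for PDK1, chr11:18394313-18394562 (plus strand) for LDHA, chrX:78103998-78104247 (plus strand) for PGK1, chr3:48556804-48557053 (minus strand) for PFKFB4 and chr14:24094061-24094310 (plus strand) for PCK2. The windows of PGK1, PFKFB4 and PCK2 lie inside the genes as the deposited table bounds them.
PFKFB4: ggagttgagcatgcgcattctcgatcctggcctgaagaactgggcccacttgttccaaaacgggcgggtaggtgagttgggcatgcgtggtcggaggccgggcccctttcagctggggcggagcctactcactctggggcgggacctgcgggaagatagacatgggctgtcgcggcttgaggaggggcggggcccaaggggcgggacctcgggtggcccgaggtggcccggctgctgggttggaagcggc
PDK1: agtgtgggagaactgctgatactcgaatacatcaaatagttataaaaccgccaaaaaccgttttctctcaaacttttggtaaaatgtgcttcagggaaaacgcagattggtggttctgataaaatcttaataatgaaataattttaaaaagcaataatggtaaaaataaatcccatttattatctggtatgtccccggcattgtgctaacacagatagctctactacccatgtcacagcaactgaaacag
LDHA: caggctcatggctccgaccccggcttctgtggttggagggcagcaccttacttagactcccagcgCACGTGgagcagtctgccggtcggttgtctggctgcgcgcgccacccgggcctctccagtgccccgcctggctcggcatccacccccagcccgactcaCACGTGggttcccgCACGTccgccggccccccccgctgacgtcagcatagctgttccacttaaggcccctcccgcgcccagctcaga
PGK1: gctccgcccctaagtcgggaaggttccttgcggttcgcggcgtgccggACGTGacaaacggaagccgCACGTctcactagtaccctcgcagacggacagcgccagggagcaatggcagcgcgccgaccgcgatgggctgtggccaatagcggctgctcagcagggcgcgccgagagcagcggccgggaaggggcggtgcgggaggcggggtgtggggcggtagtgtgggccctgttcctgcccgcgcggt
PCK2: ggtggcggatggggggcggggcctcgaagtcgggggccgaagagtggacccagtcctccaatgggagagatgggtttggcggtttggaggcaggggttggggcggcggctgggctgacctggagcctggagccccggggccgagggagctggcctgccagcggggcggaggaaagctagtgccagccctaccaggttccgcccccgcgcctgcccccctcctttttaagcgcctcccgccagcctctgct

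LDHA had 5 matches, counted on both strands and standing in 3 stretches of its flank, and PGK1 had 2. PFKFB4, PDK1 and PCK2 had no ACGTG in the windows printed, which says nothing of other forms of the core or of sequence farther away. RefSeq gives PDK1 a second start site, and the window of that site held ACGTG. Windows of 250 bases before to 50 bases after a start site were found for 30 of the 34 genes (59 windows, not SLC2A3, PFKFB2, SLC16A1 and PCK1). ACGTG was in 24 of the 59 (40.7%), against 21.4% of all 35116 promoter windows. Windows of the same gene can overlap, so a site can be counted more than once, as for G6PC3, and the windows are not separate cases. The windows of genes called higher held it in 16 of 41 cases (39.0%), and the windows of the other genes in 8 of 18 (44.4%). TGATGNAA, the core of the ATF4 amino acid response element, was in 2 of the 59 windows (3.39%), both of HK1, against 3.62% of all windows. The median GC content was 68.7% in the 59 windows and 58.7% in all windows, and its part in the motif shares was not tested.

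Glucose uptake was represented by 2 transporters of the GLUT family. SLC2A1, which encodes GLUT1, had 51.7, 47.1 and 49.6 FPKM in the Control libraries and 71.8, 60.4 and 73.5 FPKM in the OX-LDL libraries, without overlap. The difference was 0.50 on the log2 scale (standard error, SE, 0.09, adjusted p = 0.0169 by edgeR). The adjusted p was between 0.0611 and 0.0647 without Control replicate 2 or either of OX-LDL replicates 1 and 3. SLC2A3, which encodes the neuronal-type transporter GLUT3, ranged from 9.14 to 11.4 FPKM in Control and from 11.8 to 12.4 FPKM in OX-LDL. The groups did not overlap, but the gene did not pass edgeR's test (log2 fold change 0.30, 95% interval 0.08 to 0.52, adjusted p = 0.0723), and it passed in DESeq2 (adjusted p = 0.0387). SLC2A14, a close copy of SLC2A3, had 184 to 325 counts per library and a level of at most 0.650 FPKM.

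Hexokinases trap glucose by phosphorylation, and HK1 and HK2 were higher while HKDC1, which is not among the 34 genes and is described with the other pathway genes, fell. HK1, the housekeeping form, had 33.0, 30.5 and 25.4 FPKM in Control and 42.0, 35.7 and 42.2 FPKM in OX-LDL. HK2, the inducible form, was about an order of magnitude lower, with 1.86, 1.75 and 2.70 FPKM in Control and 4.14, 2.93 and 5.16 FPKM in OX-LDL. The groups of both genes did not overlap, and the log2 fold changes were 0.46 for HK1 (SE 0.12) and 0.98 for HK2 (SE 0.25), with adjusted p = 0.0444 and 0.0439 by edgeR. Neither call held in limma, in edgeR without the minimum level, or without Control replicate 2 or either of OX-LDL replicates 1 and 3. HK1 was also lost without Control replicate 3 and HK2 without Control replicate 1. Over the fits that left out a library and lost the call, adjusted p was 0.0882 to 0.133 for HK1 and 0.113 to 0.138 for HK2. GPI, which interconverts the phosphates of glucose and fructose, had 18, 15.1 and 15.9 FPKM in Control and 21.7, 22.6 and 23.4 FPKM in OX-LDL (log2 fold change 0.50, adjusted p = 0.0163 by edgeR). It was not called without Control replicate 2, Control replicate 3 or OX-LDL replicate 3 (adjusted p 0.0504 to 0.0611).

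Phosphofructokinase, the committed step of glycolysis, is built from liver, muscle and platelet subunits. PFKP, the platelet subunit and the most abundant of the 3, had 40.0, 35.8 and 35.8 FPKM in Control and 55.7, 55.3 and 55.4 FPKM in OX-LDL. PFKL, the liver subunit, had 5.19, 5.23 and 6.59 FPKM in Control and 8.05, 10.5 and 8.33 FPKM in OX-LDL. Both rose without overlap of the groups, by log2 fold changes of 0.61 for PFKP (SE 0.07, adjusted p = 0.00478 by edgeR) and 0.69 for PFKL (SE 0.14, adjusted p = 0.0227). The call of PFKL was lost without Control replicate 1, Control replicate 2 or OX-LDL replicate 3 (adjusted p 0.0609 to 0.0844). PFKM, the muscle subunit, ranged from 10.5 to 13.2 FPKM in Control and from 9.24 to 11.3 FPKM in OX-LDL, overlapping groups with a log2 fold change of -0.18 (95% interval -0.46 to 0.10). PFKM therefore made up 21.8% of the summed phosphofructokinase FPKM in Control and 13.8% in OX-LDL. It overlaps SENP1 on the opposite strand, which had up to 67.8% of its counts, and whether counting used the strand is not stated in the sources used here.

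The PFKFB enzymes make and break the regulatory form of fructose bisphosphate, the strongest known activator of phosphofructokinase. PFKFB4 (ENSG00000114268, chromosome 3, 48517684 to 48561972) showed the largest rise of all 34 genes. Its level was 1.39, 1.43 and 0.906 FPKM in Control and 4.81, 5.09 and 5.25 FPKM in OX-LDL, a 4.14-fold difference (95% interval 3.05 to 5.63; log2 fold change 2.05, SE 0.19, adjusted p = 0.00195 by edgeR). PFKFB3, the form with the highest kinase activity relative to phosphatase, had 12.2, 10.5 and 10.6 FPKM in Control and 13.8, 14.0 and 17.9 FPKM in OX-LDL. For PFKFB3 the log2 fold change was 0.49 (SE 0.13, adjusted p = 0.0484), and the call was lost with any 1 of the 6 libraries left out (adjusted p 0.0556 to 0.150), in limma, with library totals and without the minimum level. PFKFB2, the heart form, ranged from 4.14 to 4.58 FPKM in Control and from 3.78 to 4.0 FPKM in OX-LDL. Its groups did not overlap, yet the log2 fold change of -0.14 (95% interval -0.32 to 0.04) did not pass the test. YOD1, on the opposite strand of PFKFB2, had up to 189% of its counts.

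Aldolase splits the fructose bisphosphate of glycolysis into triose phosphates, which triose phosphate isomerase interconverts. ALDOA, the main aldolase, had 40.8, 68.3 and 43.2 FPKM in Control and 88.6, 90.1 and 103 FPKM in OX-LDL, without overlap (log2 fold change 0.93, SE 0.19, adjusted p = 0.0237 by edgeR). Control replicate 2 stood above the other Control libraries. AC093512, a gene listed on the same strand over ALDOA, had 6578 counts in that library and 16757 and 13034 in the other Control libraries, and how reads were split between this pair is not given in the sources used here. The counts of both genes together were 30791, 30432 and 26806 in Control and 44803, 51396 and 52629 in OX-LDL. Their log2 fold change was 0.81 (adjusted p = 0.00113 by edgeR, an alternative added after the data had been seen). ALDOA by itself was not called without either of Control replicates 1 and 3 or either of OX-LDL replicates 1 and 3 (adjusted p 0.0643 to 0.0837). ALDOC, the brain aldolase, was close to the detection limit with 9, 14 and 34 counts in Control and 86, 68 and 37 in OX-LDL, and did not pass edgeR's test (log2 fold change 1.80, 95% interval 0.27 to 3.34, adjusted p = 0.113), though it passed in DESeq2 (adjusted p = 0.0386). AC005726, on the same strand, had up to 281% of the counts of ALDOC. TPI1 was 186 to 228 FPKM in Control and 167 to 232 FPKM in OX-LDL, with a log2 fold change of -0.01 (95% interval -0.33 to 0.31), and its pseudogenes held 2.40% to 4.01% of its counts.

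The steps from glyceraldehyde phosphate to pyruvate yield ATP and NADH. Of their 6 listed genes 5 were called higher, against 7.91% of all genes tested. GAPDH, the dehydrogenase that is often used as a reference gene, was the most abundant of the 34 genes. It had 1073, 1052 and 1111 FPKM in Control and 1557, 1521 and 1574 FPKM in OX-LDL, and the log2 fold change was 0.56 (95% interval 0.43 to 0.68, adjusted p = 0.00234 by edgeR), or 1.47-fold. No OX-LDL library came near the Control range. PGK1 (ENSG00000102144, chromosome X, 77910739 to 78129295), which makes the first ATP of this phase, had 107, 87.4 and 92.1 FPKM in Control and 217, 218 and 226 FPKM in OX-LDL, a 2.36-fold difference (log2 fold change 1.24, SE 0.09, adjusted p = 0.00127). PGAM1, the mutase that follows, had 221, 201 and 194 FPKM in Control and 290, 300 and 273 FPKM in OX-LDL (log2 fold change 0.52, SE 0.08, adjusted p = 0.00895). Both genes were without overlap between the groups. ENO1, the ubiquitous enolase, had 356, 298 and 283 FPKM in Control and 576, 549 and 550 FPKM in OX-LDL (log2 fold change 0.87, SE 0.10, adjusted p = 0.00399). PKM, pyruvate kinase, had 107, 97.1 and 104 FPKM in Control and 133, 139 and 135 FPKM in OX-LDL (log2 fold change 0.43, SE 0.07, adjusted p = 0.0097), and the table does not separate its M1 and M2 splice forms. ENO2, the neuronal enolase, was 14.5, 14.8 and 25.2 FPKM in Control and 21.9, 24.7 and 24.9 FPKM in OX-LDL. The high value of Control replicate 3 made its groups overlap (log2 fold change 0.42, 95% interval -0.09 to 0.94), and without that library the log2 fold change was 0.73 (adjusted p = 0.0133).

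Over the 15 listed enzymes from hexokinase to pyruvate kinase, 11 were higher, none was lower and 4 (PFKM, ALDOC, TPI1 and ENO2) did not pass the test. Of all genes tested, 7.91% were higher and 7.42% lower. HKDC1 and ENO3, genes of the same steps outside the list, were called lower. The summed level of the 15 enzymes was 2175 ± 68.5 FPKM over the Control libraries and 3215 ± 17.8 FPKM over the OX-LDL libraries (SD, 3 libraries each). Neighbours on a chromosome differed in their calls. GAPDH (chromosome 12, 6534512 to 6538371), TPI1 (6867119 to 6870948) and ENO2 (6913745 to 6923696) lie close together on the plus strand of GRCh38, and 1 of these 3 was called.

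**Figure D2:**
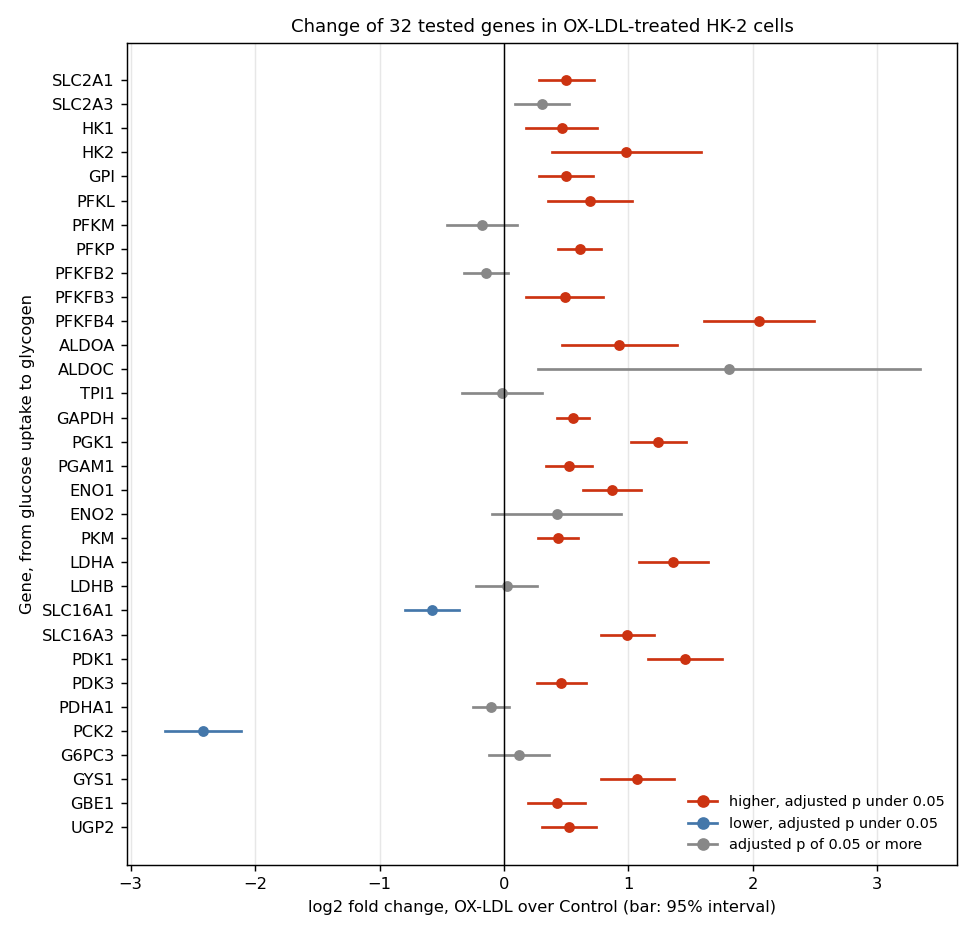
log2 fold change of OX-LDL over Control for the 32 tested genes, in the order of the route. Bars are unadjusted 95% intervals derived from edgeR's quasi-likelihood test, and colours give the call at an adjusted p under 0.05. The 21 higher genes run from 0.42 to 2.05, PCK2 stands apart at -2.42, and the intervals of TPI1 and LDHB lie around 0.

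Pyruvate is reduced to lactate by tetramers of LDHA and LDHB, of which LDHA-rich forms are known to favour lactate production. LDHA (ENSG00000134333, chromosome 11, 18394560 to 18408425) had 106, 80.7 and 87.9 FPKM in Control and 221, 239 and 232 FPKM in OX-LDL, a 2.57-fold difference (95% interval 2.12 to 3.12; log2 fold change 1.36, SE 0.12, adjusted p = 0.0018 by edgeR). LDHB was the second most abundant of the 34 genes in Control and did not pass the test, at 387 to 428 FPKM in Control and 365 to 458 FPKM in OX-LDL (log2 fold change 0.02, 95% interval -0.22 to 0.27, and -0.01 with library totals only). LDHA thus rose from 18.4% ± 1.52 to 36.6% ± 2.02 of the summed FPKM of LDHA and LDHB (SD, n = 3 per group), and LDHB remained the larger share in every library.

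The 2 lactate transporters moved in opposite directions. SLC16A3, which encodes MCT4, the transporter known from lactate-exporting cells, had 4.32, 4.59 and 4.98 FPKM in Control and 8.93, 8.37 and 9.73 FPKM in OX-LDL (log2 fold change 0.99, SE 0.09, adjusted p = 0.00196 by edgeR). SLC16A1 (ENSG00000155380, chromosome 1, 112911847 to 112956353), which encodes MCT1, a transporter for lactate and pyruvate in both directions, had 58.0, 60.1 and 60.1 FPKM in Control and 36.7, 36.1 and 44.0 FPKM in OX-LDL. For SLC16A1 the log2 fold change was -0.58 (SE 0.09, adjusted p = 0.0105), with every OX-LDL library below every Control library. SLC16A1 was still the larger part of the pair, with 92.8% of their summed FPKM in Control and 81.2% in OX-LDL, and the sum of both was 64.0 ± 1.5 FPKM (SD) in Control, against 47.9 ± 5.04 FPKM in OX-LDL. CSNK1D, on the opposite strand over SLC16A3, had up to 126% of the counts of SLC16A3.

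Pyruvate enters the mitochondrial route through pyruvate dehydrogenase, whose kinases (PDK) switch it off by phosphorylation. PDK1 (ENSG00000152256, chromosome 2, 172555373 to 172595969) had 2.69, 2.14 and 2.88 FPKM in Control and 6.81, 6.67 and 7.2 FPKM in OX-LDL, a 2.74-fold difference (log2 fold change 1.45, SE 0.13, adjusted p = 0.0018 by edgeR). PDK3 had 4.43, 3.91 and 4.02 FPKM in Control and 5.36, 5.50 and 5.77 FPKM in OX-LDL (log2 fold change 0.46, SE 0.08, adjusted p = 0.0155). Neither gene had overlapping groups, and PDK3 was not called without Control replicate 2 or OX-LDL replicate 3 (adjusted p 0.0601 and 0.0617). PDK1 went from 38.3% to 55.4% of the summed FPKM of PDK1 and PDK3. PDHA1, the catalytic subunit that the kinases act on, was 39.2 to 40.5 FPKM in Control and 35.6 to 36.8 FPKM in OX-LDL. Its groups did not overlap, but the difference did not pass edgeR's test (log2 fold change -0.11, 95% interval -0.25 to 0.04, adjusted p = 0.297).

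In the gluconeogenic group, PCK2 fell more than any other of the 34 genes. PCK2 (ENSG00000100889, chromosome 14, 24094053 to 24104130) makes phosphoenolpyruvate inside the mitochondrion. Its level was 11.4, 12.7 and 13.3 FPKM in Control and 2.28, 1.96 and 2.60 FPKM in OX-LDL, 5.35-fold lower (log2 fold change -2.42, SE 0.13, adjusted p = 0.000365 by edgeR). The 3 OX-LDL libraries lay far below the Control range, and the log2 fold change stayed between -2.53 and -2.04 in all 15 alternatives. PCK1, the cytosolic enzyme that marks gluconeogenic tubule and liver cells, was listed at 0 counts in 5 libraries and at 4 counts in OX-LDL replicate 1. FBP1, the fructose bisphosphatase of liver and kidney, had 4, 0 and 4 counts in Control and 12, 15 and 0 in OX-LDL. Both were at or near the detection limit, so a difference was not detectable at this depth. G6PC3, the ubiquitous form of glucose phosphatase, was 2.75 to 3.02 FPKM in Control and 2.94 to 3.19 FPKM in OX-LDL and did not pass the test (log2 fold change 0.12, 95% interval -0.12 to 0.36).

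The 3 listed genes of glycogen synthesis were all called higher, against 7.91% of all genes tested. GYG1 and GYG2, genes of glycogen synthesis outside the list, were not called (log2 fold changes 0.18 and 0.37, adjusted p = 0.256 and 0.231 by edgeR). GYS1 (ENSG00000104812, chromosome 19, 48968130 to 48993310), glycogen synthase, had 6.51, 5.46 and 6.04 FPKM in Control and 13.6, 10.6 and 12.9 FPKM in OX-LDL, a 2.10-fold difference (log2 fold change 1.07, SE 0.12, adjusted p = 0.00432 by edgeR). UGP2, which makes the UDP-glucose that the synthase uses, had 20.8, 19.1 and 19.4 FPKM in Control and 29.8, 24.8 and 29.0 FPKM in OX-LDL (log2 fold change 0.52, SE 0.09, adjusted p = 0.0137). GBE1, the branching enzyme, had 14.4, 13.2 and 12 FPKM in Control and 16.4, 18.3 and 17.3 FPKM in OX-LDL (log2 fold change 0.42, SE 0.10, adjusted p = 0.0301). The groups did not overlap in any of these 3 genes. GBE1 was called in 1 of the 6 fits that left out a library, that without Control replicate 1 (adjusted p 0.0589 to 0.10 in the others), and UGP2 was lost without Control replicate 2 or either of OX-LDL replicates 1 and 3 (adjusted p 0.0516 to 0.0574).

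Ratios of isozymes within a library do not depend on library size, and 9 of 11 pairs could be given. In 5 of them the 3 OX-LDL libraries lay wholly on one side of the Control libraries. The share of such ratios among other gene pairs was not determined. Each of the 9 pairs holds a gene called by edgeR, so the ratios are not separate from those calls. The log2 ratio of LDHA to LDHB was -2.15 ± 0.15 in Control and -0.79 ± 0.13 in OX-LDL (SD, n = 3 per group). The ratio of SLC16A1 to SLC16A3 differed by -1.57, that of PFKFB3 to PFKFB4 by -1.60, that of PFKM to PFKL by -0.86 and that of PDK1 to PDK3 by 1.00 on the log2 scale. Each of the 5 gave p = 0.1 in a two-sided exact permutation test, the smallest value that 3 against 3 libraries allow, and adjustment over the 9 pairs cannot lower it. The ratios of SLC2A1 to SLC2A3 (difference 0.19), HK1 to HK2 (-0.51), PFKP to PFKL (-0.08) and ENO1 to ENO2 (0.41) overlapped between the groups. With a library left out, the difference for SLC2A1 to SLC2A3 ran from 0.0660 (without Control replicate 2) to 0.29 (without OX-LDL replicate 2), for HK1 to HK2 from -0.81 (without Control replicate 3) to -0.35 (without Control replicate 1), and for ENO1 to ENO2 from 0.0787 (without Control replicate 3) to 0.64 (without Control replicate 1). That for PFKP to PFKL ran from -0.22 (without Control replicate 3) to 0.0404 (without OX-LDL replicate 2), and its sign also turned without Control replicate 1 (0.0319).

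**Figure D3:**
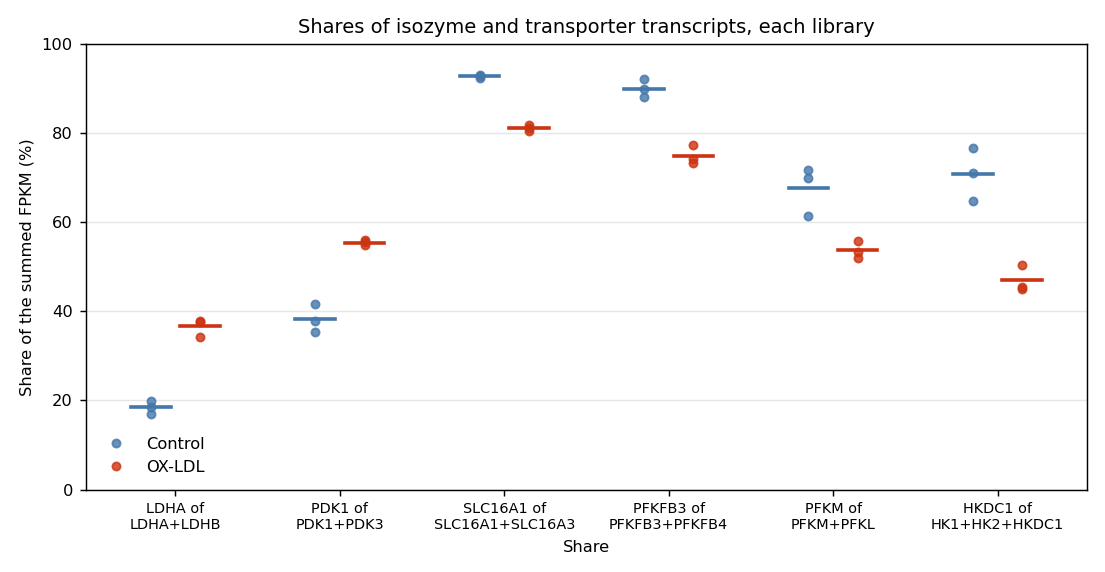
Share of each named gene in the summed FPKM of its isozymes or transporters, in percent, for each of 3 Control and 3 OX-LDL libraries (points) with group means (bars). The LDHA share goes from 18.4% to 36.6% and the PDK1 share from 38.3% to 55.4%, while the shares of SLC16A1, PFKFB3, PFKM and HKDC1 are lower in OX-LDL.

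Among the other genes of the same routes, calls were made in both directions. Of 51 further pathway genes, 35 were tested, 4 were higher (11.4%, against 7.91% of all genes tested) and 6 were lower (17.1%, against 7.42%), with a median log2 fold change of 0.05. HKDC1, a hexokinase domain protein and a neighbour of HK1 on chromosome 10, had 64.3, 78.9 and 92.7 FPKM in Control and 38.3, 39.3 and 38.7 FPKM in OX-LDL (log2 fold change -0.99, SE 0.13, adjusted p = 0.00556 by edgeR). It was the most abundant of the hexokinase genes in Control, so the summed FPKM of HK1, HK2 and HKDC1 was 110 ± 10.9 in Control and 82.8 ± 4.33 in OX-LDL, although HK1 and HK2 together were 31.7 ± 3.40 and 44.0 ± 4.74 (SD, n = 3 per group). SLC16A7, the transporter MCT2, fell beside SLC16A1 (5.33 to 6.0 FPKM in Control and 2.91 to 3.42 FPKM in OX-LDL, log2 fold change -0.83, adjusted p = 0.00358). PDK4 fell while PDK1 and PDK3 rose (2.70 to 2.97 FPKM in Control and 0.907 to 1.25 FPKM in OX-LDL, log2 fold change -1.28, adjusted p = 0.00554).

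On the glycogen side, PGM1, which links glucose phosphate to glycogen, was 18.7 to 20.3 FPKM in Control and 33.4 to 35.3 FPKM in OX-LDL (log2 fold change 0.84, adjusted p = 0.00168 by edgeR), next to GYS1 and UGP2. PYGL, the liver glycogen phosphorylase that breaks glycogen down, was also higher, with 15.7 to 18.8 FPKM in Control and 26.0 to 30.2 FPKM in OX-LDL (log2 fold change 0.78, adjusted p = 0.00516). SLC2A2, the transporter GLUT2, was low, at 0.107 to 0.178 FPKM in Control and 1.11 to 1.59 FPKM in OX-LDL (log2 fold change 3.11, SE 0.30, adjusted p = 0.00223), and the fold depends on the pseudocount, with 0.99 on the log2(FPKM + 1) scale. The other 4 called genes, chosen for mention after their values had been seen, were SLC2A5 (log2 fold change 1.60, and 0.32 on the log2(FPKM + 1) scale, at 0.0872 to 0.526 FPKM) among the higher ones, and PC, the pyruvate carboxylase that feeds gluconeogenesis (-1.37), ENO3, the muscle enolase (-1.04), and PYGB, the brain glycogen phosphorylase (-0.32), among the lower ones. PYGB was above PYGL in every library, at 84.4 to 90.6 FPKM in Control and 64.5 to 73.7 FPKM in OX-LDL. SLC2A5 was lost without either of Control replicates 1 and 2 or either of OX-LDL replicates 1 and 3 (adjusted p up to 0.0886), PC without OX-LDL replicate 1 or 3 (up to 0.0545), and PYGB without any 1 library other than OX-LDL replicate 2 (up to 0.115).

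**Figure D4:**
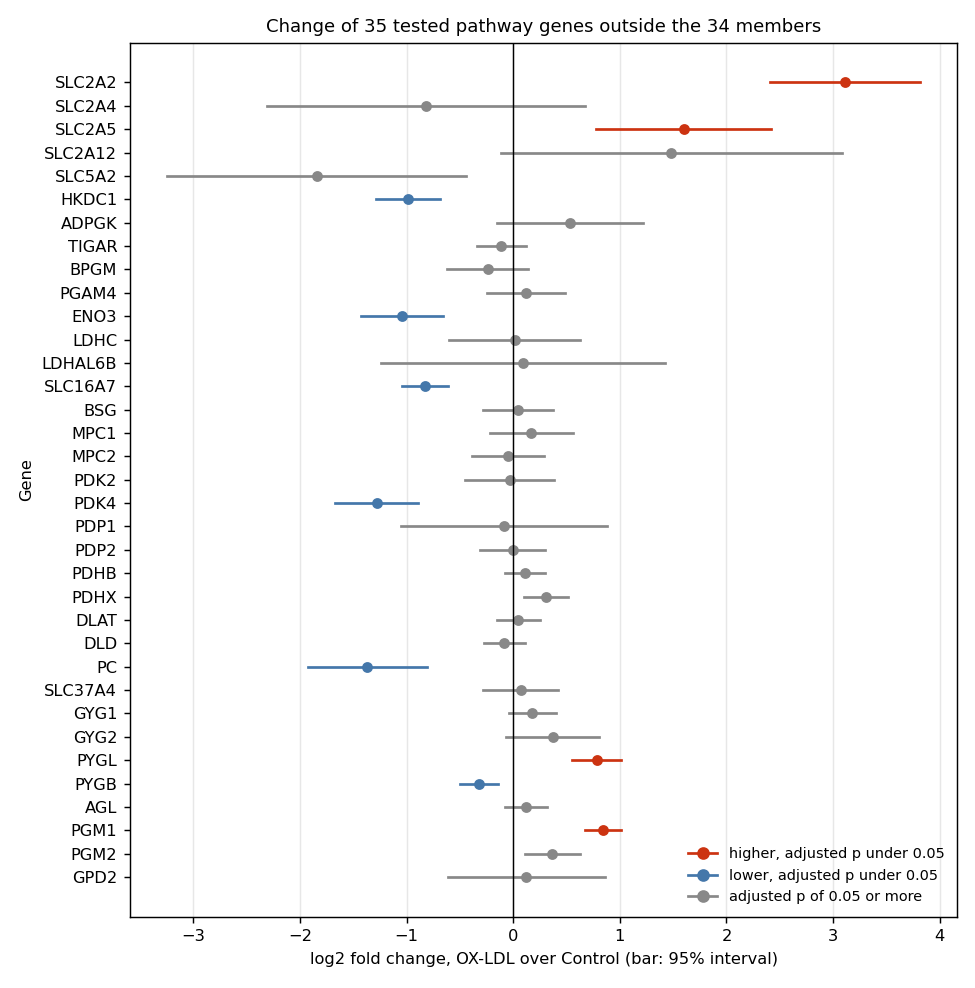
log2 fold change of OX-LDL over Control for the 35 tested pathway genes that are not among the 34. Bars are unadjusted 95% intervals derived from edgeR's test, and colours give the call at an adjusted p under 0.05. The 4 higher genes are SLC2A2, SLC2A5, PYGL and PGM1, the 6 lower ones are HKDC1, ENO3, SLC16A7, PDK4, PC and PYGB, and the other 25 did not pass the test.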

How the data were processed

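Poly(A) RNA of 3 Control and 3 OX-LDL libraries of HK-2 cells was analysed, grouped by their labels. The authors deposited 1 table with estimated counts, which are whole numbers not scaled for library size, and FPKM values, scaled by the authors for transcript length and sequencing depth and listed at 0.0001 where the count is 0. The submitters' processing notes name cutadapt (version 1.9), HISAT2 (version 2.0.4), StringTie (version 1.3.4d), edgeR, DESeq2 and the build GRCh38, without saying what each was used for. The library kit marks strand, but whether counting used it is not given in the sources used here, so reads of genes that overlap on opposite strands may not be separable. Of the 34 genes, 27 overlap another listed gene and 16 overlap one on the same strand.

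The 34 genes, the 51 other pathway genes, the markers, the isozyme pairs and the motifs were chosen with earlier results of these data known. All 34 were named, and of the other pathway genes those with an adjusted p under 0.05 and the 6 smallest p-values. The count fit used edgeR (version 4.0.16, R version 4.3.3) with TMM factors, glmQLFit and glmQLFTest over 19510 genes whose mean level reached 0.1 FPKM, with group as the only term, and Benjamini-Hochberg adjustment over all of them. A gene was called at an adjusted p under 0.05. Standard errors were derived from the log2 fold change and the F statistic of that test, and 95% intervals from them with a t distribution. The intervals are not adjusted for the number of genes, so an interval can exclude no change in a gene that was not called. With 3 against 3 libraries an exact permutation test cannot go below 0.1. Each library was left out in turn, and DESeq2 (version 1.42.0), limma (version 3.58.1) on log2(FPKM + 0.1) and log2(FPKM + 1), library totals only, no minimum, a minimum mean of 1 FPKM, counts divided by 4, a replicate block and pseudogene counts added to their parents were tried. The fits were tested on simulated data. The libraries of a group differed by more than sampling noise. Promoter windows come from RefSeq (GRCh38.p14). Positions are those of the deposited table. One marker of the epithelial list is not reported here.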

Additional observations from a re-analysis of the deposited data

How the results depend on the processing

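The 2 lower calls, SLC16A1 and PCK2, were made in all 15 alternatives. The count of higher genes, 21, was 23 in DESeq2 (SLC2A3 and ALDOC added), 19 with library totals only (HK1 and PFKFB3 lost), 18 in limma with either pseudocount and without a minimum level (HK1, HK2 and PFKFB3 lost), 21 with a minimum of 1 FPKM, with counts divided by 4 and with pseudogenes added, and 11 to 19 with a library left out. Library totals moved the median of all genes by -0.03 on the log2 scale. With a replicate block 15 genes were higher and 2 lower, and HK1, GPI, PFKL, PFKFB3, PDK3 and GBE1 were lost (adjusted p 0.0525 to 0.101). Deviations of libraries with the same number correlated at -0.109, -0.034 and -0.002. These values show no shared effect of the number, but cannot show whether the cultures were paired, which the sources used here do not give. The sign of LDHB was reversed to -0.01 with library totals and to -0.02 in limma with either pseudocount. With a library left out, log2 fold changes ran from -0.08 to 0.09 for LDHB and from -0.12 to 0.11 for TPI1, and the ratio of PFKP to PFKL differed by -0.22 to 0.0404. In the same fits, the other pathway genes gave 3 to 5 higher and 4 to 6 lower calls, and in DESeq2 6 and 7. With 3 libraries per group, up to 10 calls were lost on leaving out 1 of them.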
